A study of Mus musculus with 12 samples.

Results

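The miR-106b~25 cluster is a group of 3 microRNAs, miR-106b, miR-93 and miR-25, encoded together inside the mouse gene Mcm7. Its members were chosen by array name (mmu-miR-106b, mmu-miR-93 and mmu-miR-25). They are 3 of the 650 microRNAs on the array, of which 611 are mouse and 176 entered the tests. All 3 were detected on all 12 arrays and all 3 were tested. The cells are mouse embryonic fibroblasts of C57BL/6 background that either have the endoplasmic reticulum (ER) stress mediator ATF6b (genotype ATF6bWT, here wild type) or lack it (ATF6bKO, here knockout). Each genotype was left untreated or received tunicamycin at 2 ug/mL over 12 h or 24 h, which gives 6 groups of 2 arrays from separate experiments. The study set out to find microRNAs whose answer to the 12 h treatment needs ATF6b. The labels do not say how the knockout was made, how many embryos or cell lines stand behind a genotype, or whether untreated cells received vehicle. ATF6b has no probe here, and the genotype could not be checked against its transcript.

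Tunicamycin blocks N-linked glycosylation, so that unfolded proteins build up in the ER. ATF6b is one of the ER membrane proteins that are cleaved under this stress and release a transcription factor. Mcm7 encodes a subunit of the replicative helicase, and the 3 microRNA hairpins are processed from its transcript. miR-106b and miR-93 belong to the miR-17 seed family, whose known targets include the cell cycle inhibitor p21, whereas miR-25 belongs to the miR-92 seed family. The cluster restrains the pro-apoptotic protein Bim, and it has been reported to fall under ER stress downstream of the kinase PERK.

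In RefSeq's GRCm38.p6 the hairpins lie on the minus strand of chromosome 5, within the span of Mcm7, in the order Mir106b, Mir93 and Mir25 along the transcript. Mir106b is at chr5:138165737-138165818, Mir93 at chr5:138165523-138165610 and Mir25 at chr5:138165321-138165404, so the cluster covers 498 bases, with gaps of 126 and 118 bases. The reference tables used here give gene spans and not exons. The mature sequences are shown with those of the relatives that were measured, because the values of the members are set beside theirs. They come from the same RefSeq table and run 5′ to 3′, with the seed (bases 2 to 8) in capitals.

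miR-106b: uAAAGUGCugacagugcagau
miR-93: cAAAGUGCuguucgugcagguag
miR-20a: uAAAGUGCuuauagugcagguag
miR-20b: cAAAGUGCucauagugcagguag
miR-25: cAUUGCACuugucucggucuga
miR-92a: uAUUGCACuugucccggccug
miR-15b: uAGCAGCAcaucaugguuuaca
miR-16: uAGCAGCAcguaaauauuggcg

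miR-106b shares the seed AAAGUGC with miR-93, miR-20a and miR-20b, and miR-25 shares AUUGCAC with miR-92a. Aligned end to end, miR-106b and miR-93 match at 16 of the 21 bases of miR-106b, miR-106b and miR-20a at 18, and miR-25 and miR-92a at 18 of the 21 bases of miR-92a. miR-93 matches miR-20a at 19 of 23 bases and miR-20b at 20 of 23. Whether a microRNA also binds the probes of such a relative was not tested, so relatives this close are reported as uncertain. The values of miR-93 beside miR-20a and miR-20b carry the same limit. miR-15b and miR-16 share a different seed, AGCAGCA, and are shown because they lie in Smc4, another cell division gene. They were listed with earlier results of these data known, so any likeness to miR-25 is a description.

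Levels are the summed, background-subtracted intensity of a microRNA's probes, given as a percent of the 75th percentile of each array, which was taken over the 93 microRNAs detected on all arrays. Between 114 and 191 microRNAs were detected per array. The 75th percentile lay at 208 to 257 intensity units on 3 arrays, which are replicate 2 of wild type at 24 h and of knockout at 12 h and 24 h, and at 412 to 623 on the other arrays. The untreated arrays share 1 slide and the treated arrays another, and in every comparison of tunicamycin with untreated cells the slide and the treatment therefore cannot be told apart. Of the 10 fibroblast markers listed, 9 are on the array and 6 to 9 were detected on each array. In wild type, 7 of the 8 tested were lower at 12 h of tunicamycin and 6 at 24 h. These passed limma at an adjusted p under 0.05, as did 23.9% and 29.5% of all microRNAs. In knockout cells 1 was lower at each time, beside 3.98% and 5.11%. Treated knockout cells had 6 higher than treated wild type at each time, beside 29.5% and 27.3%. The part of this shift in the members' values was not tested. Of 7 epithelial markers, 0 were detected on any untreated or wild-type array, but 3 or 4 were detected on every treated knockout array, at a summed level of 255% to 374% of the 75th percentile. Blood markers and the list of endothelial and liver markers had 0 detected members on every array, neural and muscle markers at most 1 and pluripotent markers at most 2. In RNA from whole cultures, fewer cells of a type and less RNA per cell cannot be told apart.

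All 3 members were higher in treated than in untreated cells of both genotypes, by group means. miR-106b and miR-25 passed the test at both times in both genotypes (miR-25 not with the software's total signal, where its wild-type changes turned negative), and miR-93 passed it in every such comparison but that of 24 h in wild type. In untreated cells all 3 were lower in knockout than in wild type by group means, with miR-106b past the test. After tunicamycin miR-106b and miR-93 stood at similar levels in both genotypes, whereas miR-25 was lower in knockout cells.

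**Figure D1:**
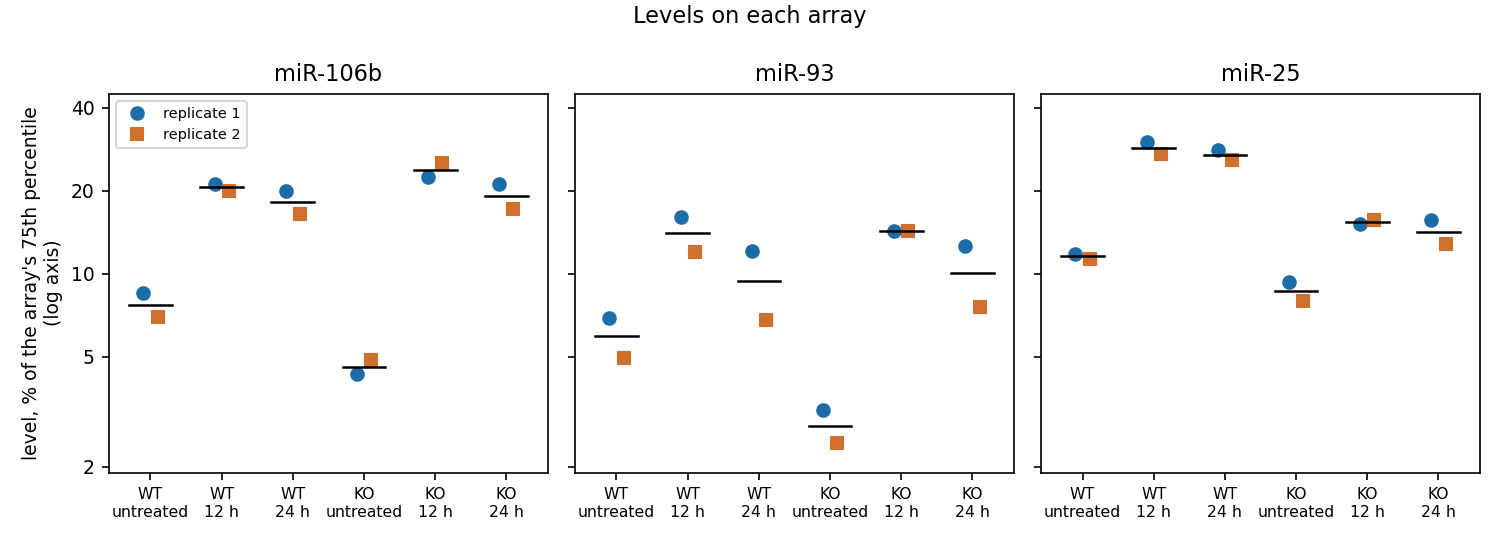
Level of each member on each array, as a percent of that array's 75th percentile on a log axis, for wild-type (WT) and knockout (KO) cells. Circles are replicate 1, squares replicate 2 and lines group means (n = 2). For miR-106b all treated arrays lie between 16.4% and 25.1% and all untreated arrays between 4.34% and 8.49%.

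miR-106b is the first hairpin of the cluster. In untreated wild-type cells it stood at 8.49% and 6.95% of the 75th percentile (replicates 1 and 2), against 21.2% and 20% at 12 h and 20% and 16.4% at 24 h. In knockout cells it stood at 4.34% and 4.87% untreated, 22.5% and 25.1% at 12 h, and 21.1% and 17.2% at 24 h. Every treated array was above every untreated array, and the knockout arrays were the lowest of the untreated ones.

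miR-93, the middle hairpin, has the seed of miR-106b. In wild-type cells it measured 6.93% and 4.97% untreated, 16% and 12% at 12 h, and 12.1% and 6.79% at 24 h. In knockout cells it measured 3.2% and 2.43% untreated, 14.3% and 14.3% at 12 h, and 12.6% and 7.6% at 24 h. The wild-type groups at 24 h and untreated overlapped, since replicate 2 at 24 h fell below replicate 1 untreated. The untreated knockout arrays lie close to the floor of 1.91% set for the fit.

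miR-25, the last hairpin, has the other seed. It measured 11.8% and 11.3% in untreated wild-type cells, 30.1% and 27.1% at 12 h, and 28.1% and 25.9% at 24 h. In knockout cells it measured 9.33% and 7.94% untreated, 15.1% and 15.7% at 12 h, and 15.6% and 12.8% at 24 h. No treated knockout array reached the level of any treated wild-type array.

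In wild-type cells, 12 h of tunicamycin was followed by higher levels of all 3 members. The mean of miR-106b went from 7.72% ± 1.09 (SD, n = 2) to 20.6% ± 0.803, a log2 change of 1.42 ± 0.17 (SE, limma adjusted p = 0.000474). miR-25 went from 11.5% ± 0.36 to 28.6% ± 2.14, a log2 change of 1.31 ± 0.14 (limma adjusted p = 0.000314). miR-93 went from 5.95% ± 1.39 to 14% ± 2.78, a log2 change of 1.24 ± 0.35 (limma adjusted p = 0.0281). Thus 3 of 3 members were called higher, where calling means an adjusted p under 0.05. Over all 176 microRNAs 14.2% were called higher and 23.9% lower, 38.1% in either direction, with a median log2 change of -0.05. The call of miR-93 rests on each array of both groups: its limma adjusted p was 0.0601 without untreated replicate 1, 0.148 without untreated replicate 2, 0.111 without 12 h replicate 1 and 0.0575 without 12 h replicate 2, in a range of 0.00177 to 0.224 over all 31 alternatives.

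At 24 h in wild-type cells miR-106b remained higher than untreated, at 18.2% ± 2.55 (SD, n = 2), a log2 change of 1.24 (limma adjusted p = 0.000985). miR-25 stood at 27% ± 1.55, a change of 1.22 (limma adjusted p = 0.000504). miR-93 averaged 9.47% ± 3.79, and its change of 0.63, with a 95% interval of -0.19 to 1.45, did not pass (limma adjusted p = 0.183). Thus 2 of 3 members were called higher, beside 13.6% of all microRNAs, with 29.5% called lower. The low value of miR-93 came from replicate 2, one of the arrays of low signal. Leaving that array out gave a change of 1.05, also without a call. With the replicate number as a block miR-93 was called (limma adjusted p = 0.0302, range over alternatives 0.0183 to 0.992), although numbers do not pair arrays across the slides.

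Knockout cells given tunicamycin for 12 h held more miR-106b and miR-93 by larger factors. miR-106b went from 4.61% ± 0.376 (SD, n = 2) to 23.8% ± 1.85, a 5.18-fold difference (log2 2.37 ± 0.17 SE, limma adjusted p = 2.56e-05). miR-93 went from 2.81% ± 0.542 to 14.3% ± 0.0188, or 5.14-fold (log2 2.36 ± 0.35, limma adjusted p = 0.00146). miR-25 went from 8.64% ± 0.984 to 15.4% ± 0.446, or 1.79-fold (log2 0.84 ± 0.14, limma adjusted p = 0.00296). All 3 were called higher, where 21.6% of all microRNAs were and 3.98% were called lower, and the median change of all was 0.25. The call of miR-25 was lost when the log2 values of its probes were averaged, at 0.45 (limma adjusted p = 0.0556), and with quantile normalization, at 0.34, in a range of 0.00103 to 0.999 over all alternatives. The size for miR-93 depends on the floor, and was 1.91 with a floor 2 times higher. The epithelial markers were detected on these arrays and not on the untreated ones, and their part in the result was not tested.

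At 24 h in knockout cells the log2 changes were 2.05 for miR-106b (limma adjusted p = 7.4e-05), 1.81 for miR-93 (limma adjusted p = 0.00654) and 0.71 for miR-25 (limma adjusted p = 0.00705). With averaged probe log2 values miR-25 was at 0.40 and with quantile normalization at 0.42, both without a call. All 3 were again called higher, beside 25.6% of all microRNAs called higher and 5.11% lower, with a median change of 0.15. Epithelial markers were detected on these arrays too, and their part was not tested.

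The rise of miR-25 in knockout cells is a rise relative to the other microRNAs of the array. Before scaling, its summed intensity was 58.2 and 47.6 units in untreated knockout cells, 67.3 and 38.6 at 12 h, and 64.2 and 26.5 at 24 h. Those groups overlap. In wild-type cells the unscaled intensity of miR-25 was 67 and 60.8 untreated against 186 and 129 at 12 h, which do not overlap, and 163 and 66.4 at 24 h, which do through the array of low signal. Unscaled miR-106b in knockout cells was 27 and 29.2 untreated, 101 and 61.8 at 12 h, and 87.1 and 35.8 at 24 h, also without overlap. At 24 h the unscaled groups overlapped for miR-106b in wild type (116 and 42 against 48.2 and 37.4 untreated) and for miR-93 in both genotypes (in knockout cells 51.9 and 15.8 against 19.9 and 14.6).

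**Figure D2:**
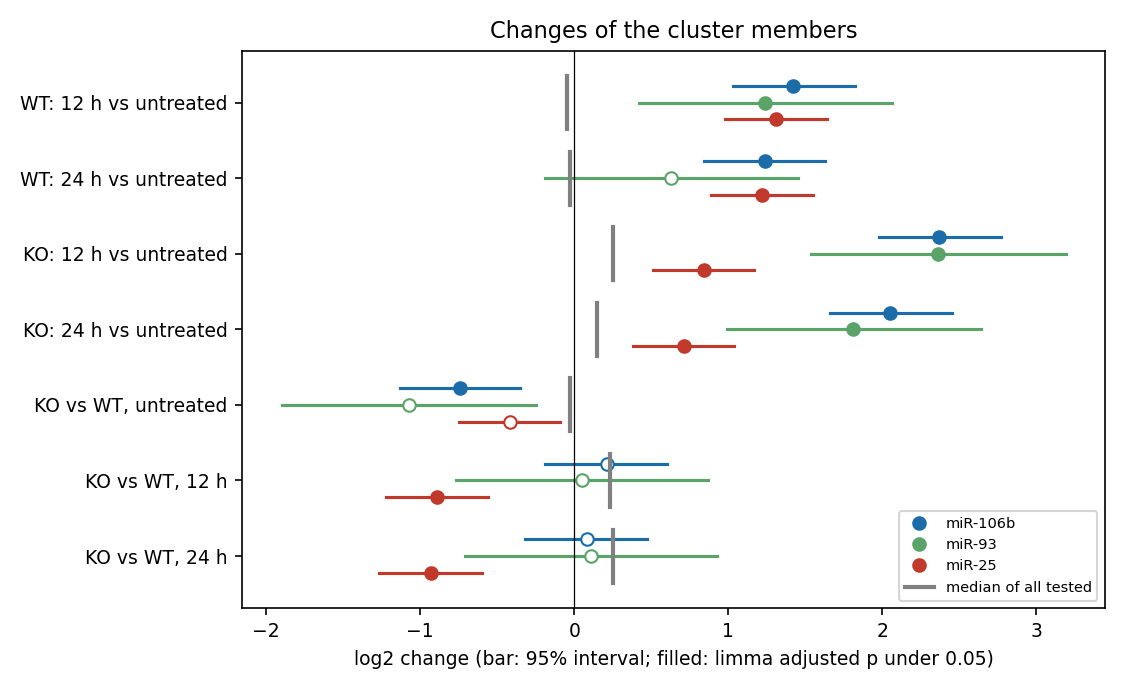
Log2 change of each member in 7 comparisons (points), with 95% intervals (bars). Filled points passed the limma test, and grey ticks mark the median of all 176 tested microRNAs. In wild-type cells the 12 h changes lie between 1.24 and 1.42, whereas in knockout cells miR-25 at 0.84 lies apart from miR-106b at 2.37 and miR-93 at 2.36.

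Between 12 h and 24 h no member changed past the test in either genotype. The log2 changes in wild type were -0.19 for miR-106b, -0.08 for miR-25 and -0.61 for miR-93, and in knockout cells -0.32, -0.13 and -0.55 in the same order. At an adjusted p under 0.05, limma called 1.14% of all microRNAs in wild type and 0.568% in the knockout. At an unadjusted p under 0.05, 0 of 3 members passed in either genotype. The share of all microRNAs at that threshold was not counted, so this count is no result about the members. The 12 h and 24 h arrays share runs. Within runs 1 and 2 the change of miR-106b was -0.08 and -0.29 in wild type and -0.09 and -0.55 in knockout cells. For miR-93 it was -0.39 and -0.83, and -0.19 and -0.91, so all 4 pairs of each were lower at 24 h. For miR-25 it was -0.10 and -0.07 in wild type, and 0.05 and -0.30 in knockout cells. How many of all microRNAs were lower in all 4 pairs was not counted. The median change of all microRNAs was itself -0.13 in each genotype. No call was made with the run or replicate number as a block, and the lowest limma adjusted p of miR-93 over all alternatives was 0.156 in wild type and 0.225 in knockout cells. The intervals are wide: for miR-93 in wild type the 95% interval runs from -1.43 to 0.21.

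The difference between genotypes in the response was tested directly, as the knockout change minus the wild-type change. For miR-106b the knockout response at 12 h was larger by 0.95 ± 0.24 (SE) on the log2 scale, with a 95% interval of 0.39 to 1.51 (limma adjusted p = 0.0271). For miR-93 it was larger by 1.12, with an interval of -0.04 to 2.29, and did not pass (limma adjusted p = 0.141). It passed with the replicate number (0.0203), the run (0.0236) or the run as a random effect (0.0262) as a block, in a limma range of 0.0203 to 0.98 over all alternatives, and was 0.66 with a floor 2 times higher. For miR-25 it was smaller, at -0.47, with an interval of -0.94 to -0.00, and did not pass (limma adjusted p = 0.137), but it was called with the run as a random block (0.0443). Thus 1 of 3 members was called higher, beside 22.2% of all microRNAs, with 2.27% called lower. The median difference over all of them was 0.37, so miR-106b lay 0.58 above it, miR-93 0.75 above it and miR-25 at -0.84 relative to it.

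At 24 h the corresponding differences were 0.82 for miR-106b (limma adjusted p = 0.0493), 1.18 for miR-93 (limma adjusted p = 0.131) and -0.51 for miR-25 (limma adjusted p = 0.108). With the replicate number as a block both of the latter were called (0.0184 and 0.0415), where 29.5% of all microRNAs were called higher and 3.98% lower. With a floor 2 times higher miR-93 was at 0.72. That is 1 of 3 members called higher, beside 19.9% of all microRNAs, with 0.568% called lower and a median of 0.44. The 12 h call of miR-106b held in 6 of 12 fits that each left out 1 array and the 24 h call in 2 of 12. Both were lost after quantile normalization and when arrays were scaled over all mouse microRNAs, to a median or to the summed signal, and the 12 h value turned to -0.33 with normexp background correction. Because the response difference contains the untreated groups, it holds the untreated genotype difference with its sign turned.

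In untreated cells the knockout had less miR-106b than wild type, by a log2 change of -0.74 ± 0.17 (SE, limma adjusted p = 0.0297). The changes of miR-93, -1.07 ± 0.35 (limma adjusted p = 0.1), and of miR-25, -0.42 ± 0.14 (limma adjusted p = 0.107), did not pass. Thus 1 of 3 members was called lower, beside 9.66% of all microRNAs, with 1.7% called higher. Each pair of untreated arrays with 1 replicate number shared a processing run. Within runs 1 and 2 the log2 difference of knockout minus wild type was -0.97 and -0.51 for miR-106b, -1.12 and -1.03 for miR-93, and -0.34 and -0.51 for miR-25. With the replicate number as a block, 3 of 3 members were called lower, where 15.3% of all microRNAs were. With a floor 2 times higher the change of miR-93 was -0.62. The call of miR-106b was lost without wild-type replicate 1 (limma adjusted p = 0.143), knockout replicate 1 (0.155) or knockout replicate 2 (0.0682), in a range of 0.00881 to 1 over all alternatives. Within each slide, treated or untreated, knockout and wild-type arrays lie in different rows, and the part of the position was not tested.

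At 12 h of tunicamycin the genotypes differed in miR-25. Knockout cells held less of it, at a log2 change of -0.89 ± 0.14 (SE, limma adjusted p = 0.00222), and 1 of 3 members was called lower, beside 8.52% of all microRNAs, with 29.5% called higher. Its difference was -1.0 within run 1 and -0.79 within run 2. miR-106b differed by 0.21, with a 95% interval of -0.19 to 0.60, and miR-93 by 0.05, with an interval of -0.77 to 0.87. Neither passed, and the median of all microRNAs was 0.23.

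At 24 h miR-25 was lower in knockout cells by a log2 change of -0.93 ± 0.14 (SE, limma adjusted p = 0.0019), again as the only member called of 3, beside 7.39% of all microRNAs called lower and 27.3% higher. Within runs it was -0.85 and -1.02. miR-106b differed by 0.08 (interval -0.32 to 0.47) and miR-93 by 0.11 (interval -0.71 to 0.93). Both calls of miR-25 were kept in 12 of 12 fits that each left out 1 array. With the software's total signal they turned to 2.21 and 2.12, without a call. Unscaled at 12 h, miR-25 did not overlap between genotypes, at 186 and 129 in wild type against 67.3 and 38.6 in knockout. The 75th percentile was itself lower on those knockout arrays, at 446 and 246 against 617 and 477. The unscaled values are therefore no separate support. At both times the epithelial markers were detected on the knockout arrays only, and these arrays lay in another slide row than the wild-type ones. The part of the markers or of the row in the difference was not tested.

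The ratio between members within an array is free of the scaling between arrays. It depends on the probes of both microRNAs, so only its change from array to array is described. The log2 ratio of miR-25 over miR-106b was 0.48 and 0.70 in untreated wild-type cells, 0.51 and 0.43 at 12 h, and 0.49 and 0.66 at 24 h. In knockout cells it was 1.1 and 0.71 untreated, -0.58 and -0.68 at 12 h, and -0.44 and -0.43 at 24 h. The 4 treated knockout arrays thus lie below 0 and the other 8 above it. The mean ratio changed by -0.12 at 12 h and -0.01 at 24 h in wild type, against -1.53 and -1.34 in knockout cells. By the probe sums, the 2 microRNAs thus changed unequally on the knockout arrays, which was not tested. By the software's total signal, miR-25 exceeded miR-106b on all 4 treated knockout arrays. At 12 h these totals were 983 and 475 against 67.8 and 41.

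miR-25 over miR-93 gave the same split at 12 h, at 0.07 and 0.13 in treated knockout cells against 0.92 and 1.17 in wild type. At 24 h it was 0.31 and 0.75 in knockout cells against 1.21 and 1.93 in wild type. The ratio of miR-93 over miR-106b ranged from -1.27 to -0.29 over the 12 arrays. It was -0.48 to -0.29 in untreated wild-type cells, which lies above the treated arrays of 24 h in wild type (-1.27 to -0.72) and of both treated knockout groups, while the 3 knockout groups overlapped one another. This measure was chosen after the values were seen and no test was made of it.

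**Figure D3:**
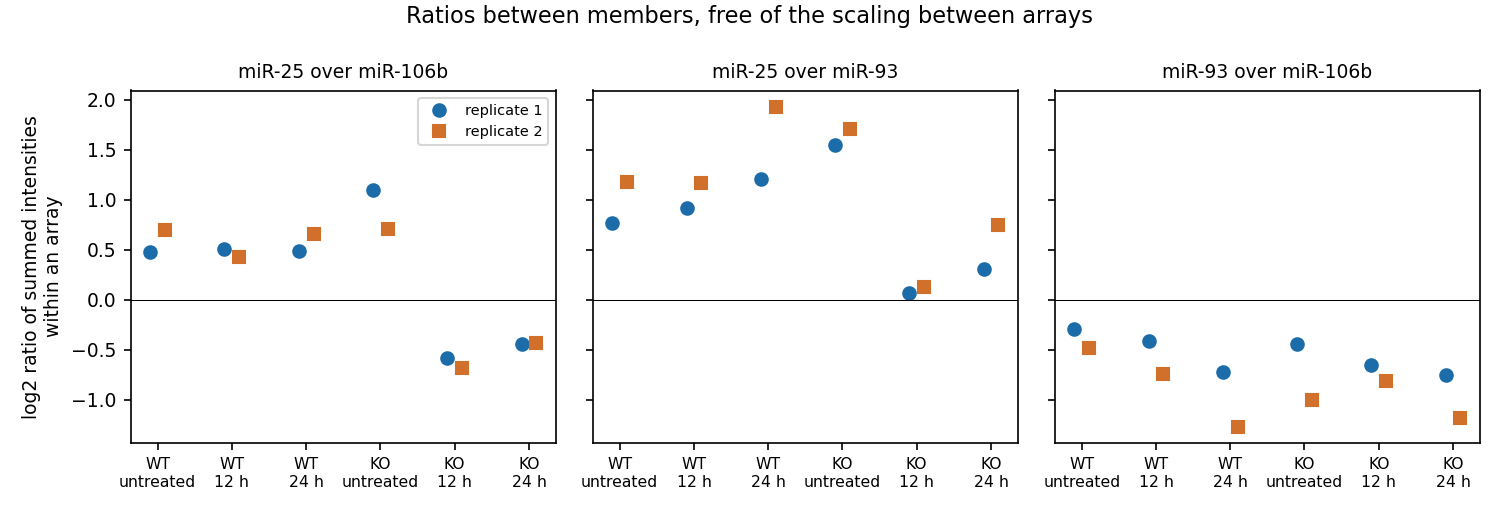
Log2 ratio of summed intensities between pairs of members within each array, for wild-type (WT) and knockout (KO) groups. Circles are replicate 1 and squares replicate 2. miR-25 over miR-106b lies between -0.68 and -0.43 on the treated knockout arrays and between 0.43 and 1.1 on all others.

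Each member is measured by 2 probes. The brighter probe of each had at least 1 spot well above background on all 12 arrays, at 24.7 to 105 intensity units for miR-106b, 13.8 to 92.2 for miR-93 and 25.1 to 166 for miR-25. All its spots were well above background on 10 arrays for miR-106b, 8 for miR-93 and 11 for miR-25. The dimmer probe had at least 1 such spot on 6 arrays for miR-106b, 2 for miR-25 and 0 for miR-93. On the brighter probe alone, miR-106b was 2.46-fold higher at 12 h in wild type and 4.43-fold in knockout cells, both without overlap. The dimmer probe of miR-106b had 0 spots well above background on every untreated array, so no fold is given for it. The brighter probe of miR-93 gave 2.35-fold and 4.71-fold. The knockout fold is uncertain, since on the untreated knockout arrays only 1 of 10 and 3 of 7 spots of that probe were well above background. For the brighter probe of miR-106b it was 4 of 10 spots on untreated knockout replicate 1.

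The scanner software also writes 1 total signal per microRNA, and this total departed, for 2 of the members, from what its probe totals add up to. For miR-106b the total was 0.815 to 1 times that sum. For miR-93 it was 6.69 to 19.4 times the sum on all arrays. For miR-25 it ranged from 1 to 31.2 times and split the replicates: untreated wild-type arrays had totals of 59.1 and 898, and untreated knockout arrays 1200 and 58.2. The deposited log2 values, which equal the log2 of that total, therefore place miR-25 at 5.89 and 9.81 in untreated wild-type cells and at 10.23 and 5.86 in untreated knockout cells. On every array 26.7% to 34.2% of detected microRNAs had a total over 2 times the sum of their probe totals. With the software's total in place of the probe sums, miR-25 changed by -0.07 at 12 h in wild type and the knockout exceeded wild type by 2.21 at 12 h, neither called, so its values depend on which column is used.

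**Figure D4:**
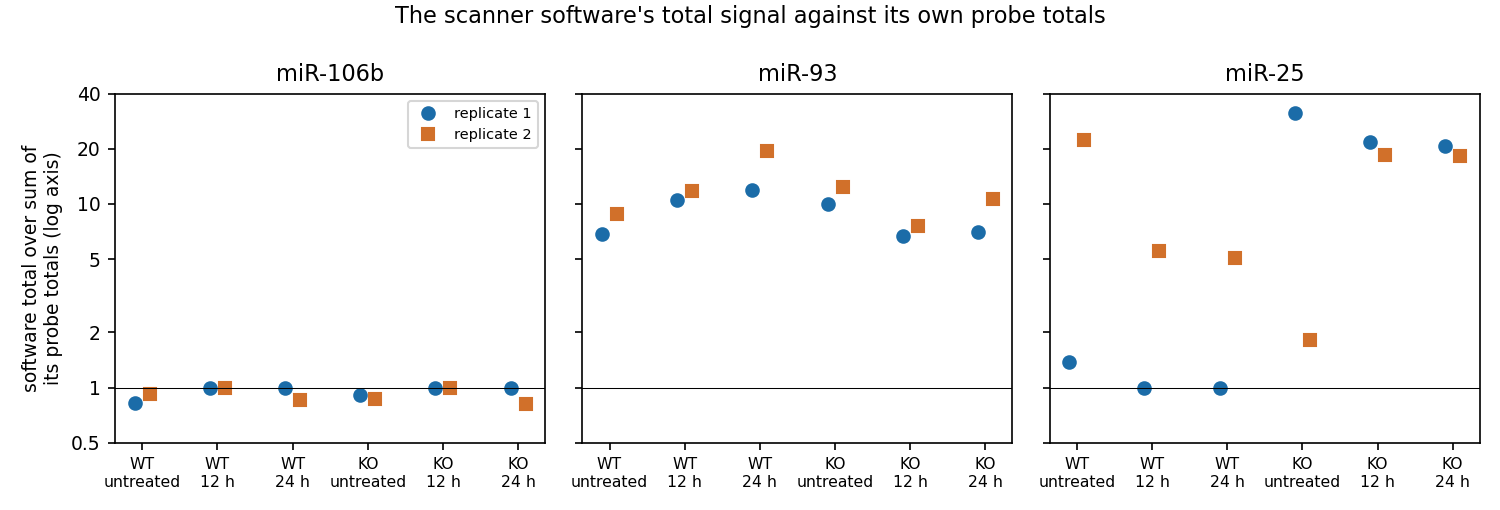
The software's total signal of each member divided by the sum of the software's totals for its probes, on a log axis, on each array. Circles are replicate 1 and squares replicate 2. miR-106b stays at 0.815 to 1, miR-93 at 6.69 to 19.4, and miR-25 moves from 1 to 31.2 within and between groups.

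The other strands of the hairpins give no further measurement. miR-106b* and miR-93* are on the array and were detected on 0 of 12 arrays, and miR-25* is not on the array.

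The seed relatives were read the same way. In the family of miR-106b and miR-93, 3 of the 4 listed relatives are on the array and 2 were tested, miR-20a and miR-20b, which come from the related clusters miR-17~92 and its X-linked counterpart. miR-17 was detected on 0 arrays. miR-20a stood at 26.6% and 23.1% in untreated wild-type cells, 71.9% and 72.2% at 12 h, 12.1% and 12.2% in untreated knockout cells, and 61.9% and 68.9% at 12 h. Its log2 changes at 12 h were 1.54 in wild type (limma adjusted p = 5.08e-05) and 2.43 in knockout cells (limma adjusted p = 1.56e-06). miR-20b changed by 1.64 and 2.46, both called. These lie beside 1.42 and 2.37 for miR-106b. In untreated cells both were called lower in knockout, at -1.03 for miR-20a and -1.15 for miR-20b. The value of miR-20b turned to 0.79 with the software's total signal.

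Of the 5 listed seed relatives of miR-25 all are on the array and 1, miR-92a, was tested. It went from 41.4% and 39.2% to 152% and 130% at 12 h in wild type, and from 28.6% and 27.7% to 82.6% and 95% in knockout cells. The log2 changes were 1.80 and 1.65, and the response difference between genotypes of -0.15 was small beside its error of 0.18. Like miR-25, miR-92a was called lower in treated knockout than in treated wild-type cells, at -0.67 at 12 h (limma adjusted p = 0.0048) and -0.78 at 24 h (limma adjusted p = 0.0028).

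Of the 6 microRNAs of miR-17~92, the paralogous cluster, 5 were tested. Treated wild-type cells had 5 of them called higher at 12 h and 4 at 24 h, beside 14.2% and 13.6% of all microRNAs, and the treated knockout had 5 at each time, beside 21.6% and 25.6%. All 5 were called lower in untreated knockout than in untreated wild-type cells, beside 9.66% of all. Their median log2 change at 12 h was 1.54 in wild type and 1.88 in knockout cells, against -0.05 and 0.25 over all microRNAs tested. Of the X-linked paralogous cluster, 3 of 6 were tested, and these 3 were called higher in each of the 4 comparisons of treated with untreated cells, beside the same shares of all microRNAs (13.6% to 25.6%). miR-19b and miR-92a are made by both clusters and count in each. The other tested one of the X-linked cluster, miR-20b, matches miR-20a at 21 of 23 bases, so its values are uncertain. Of the rest of that cluster, miR-18b and miR-363 were detected on 0 arrays and miR-106a is not on the array. A rise of the X-linked cluster itself is therefore not shown.

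miR-15b and miR-16 are encoded together in an intron of Smc4, which encodes a condensin subunit, and miR-16 has a further locus elsewhere. miR-15b was at 42.7% and 42.6% in untreated wild-type cells and 127% and 131% at 12 h, against 36.8% and 39.3% and then 59.7% and 71.2% in knockout cells. Its change was 1.60 in wild type against 0.78 in the knockout, and the difference of -0.82 ± 0.18 (SE) was called (limma adjusted p = 0.0148). For miR-16 the changes were 1.41 and 0.72, and the difference of -0.69 was called too (limma adjusted p = 0.0323). At 24 h the differences were -0.76 for miR-15b (limma adjusted p = 0.0234) and -0.56 for miR-16, which was not called (limma adjusted p = 0.0789). At 12 h both were lower in knockout than in wild type, at -0.99 and -0.66, beside -0.89 for miR-25. Because they were listed with earlier results known, this likeness is a description and not independent support.

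**Figure D5:**
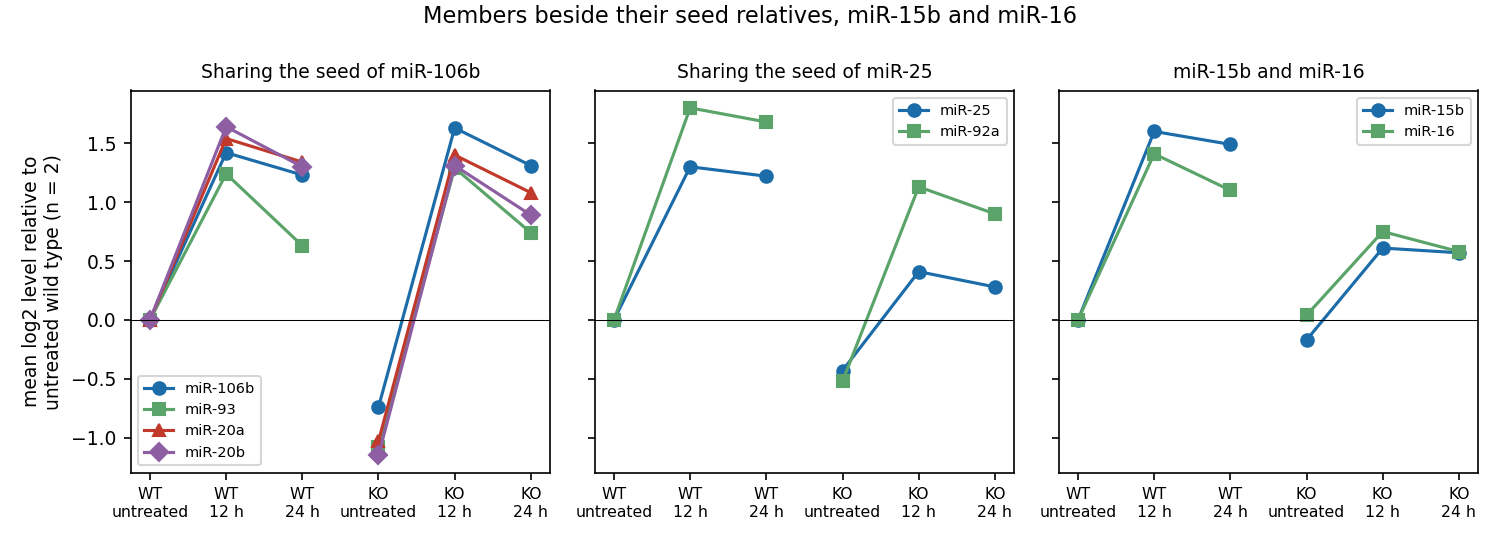
Mean log2 level (n = 2) relative to untreated wild-type cells, for the members and for their seed relatives, miR-15b and miR-16. At 12 h in knockout (KO) cells the microRNAs sharing the seed of miR-106b rise by 2.36 to 2.46 from their own untreated level, whereas miR-25, miR-15b and miR-16 rise by 0.72 to 0.84 and miR-92a, at 1.65, lies between; with the deposited log2 values miR-20b, miR-15b and miR-16 turn to -0.42, -0.11 and -0.17.

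As a contrast, the list of microRNAs reported to be cut by the ER stress nuclease IRE1 had 3 of 4 members tested. At 12 h in wild type 1 was called higher and 1 lower, where 14.2% and 23.9% of all microRNAs were, so the count says nothing particular of the list. The one called lower was miR-34a, at -0.86 (limma adjusted p = 0.00107). miR-96 was higher at 0.75 but turned to -3.02 with the software's total signal. miR-125b-5p was at -0.15 and not called. In knockout cells the change of miR-34a was 0.02, and miR-96 was undetected on both untreated arrays and stood at 11.4% and 14.3% at 12 h, so no fold is given for it.

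The microRNAs whose pattern was most like that of the cluster were ranked by Pearson's r of log2 levels over the 12 arrays, among the 90 others detected on all arrays. The points share 2 slides, 4 runs and 1 scaling per array, so r is a description. The mean of the 3 members was most like miR-20b at r = 0.99, then miR-20a, miR-19a and miR-19b at 0.98, and miR-92a at 0.95. Taken singly, miR-106b and miR-93 had the same closest neighbour and miR-25 had another. miR-19b and miR-20b were among the 5 closest of each of the 3 members. miR-106b lay closest to miR-19a (0.99) and miR-20a (0.98), and miR-93 to miR-19a (0.96) and miR-20b (0.95). miR-25 lay closest to miR-15b (0.97), miR-92a (0.95) and miR-16 (0.94). Between members r was 0.94 for miR-106b with miR-93, 0.75 for miR-106b with miR-25 and 0.74 for miR-93 with miR-25.

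The 3 hairpins share the Mcm7 transcript, so its promoter is shown, from 250 bases before to 50 after the first of 2 start sites that the RefSeq table lists (GRCm38.p6, chr5:138171834-138172133, minus strand). Capitals mark the matches to the E2F site TTTCGCGC and to the CCAAT box, on either strand.

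Mcm7 promoter: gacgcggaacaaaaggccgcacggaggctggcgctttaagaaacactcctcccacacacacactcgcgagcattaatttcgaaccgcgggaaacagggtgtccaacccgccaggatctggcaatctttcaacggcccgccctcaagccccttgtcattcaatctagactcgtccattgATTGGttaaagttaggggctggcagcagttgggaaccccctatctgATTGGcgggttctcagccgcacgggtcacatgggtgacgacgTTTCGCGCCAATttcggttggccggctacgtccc

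The window holds 1 match to TTTCGCGC, from position 17 counted from 1 at the start site, and such a match occurs in 0.323% of the 32851 promoter windows of this length. It holds 3 matches to CCAAT, and 37.4% of windows have at least 1. Of the 3 matches, 1 overlaps the E2F match by 1 base. The window of the other Mcm7 start site holds 0 matches to TTTCGCGC and 1 to CCAAT. On both strands of both Mcm7 windows there was 0 match to the ER stress element (in 0.119% of windows), ER stress element II (0.0365%), the unfolded protein response element TGACGTGG (0.676%), the C/EBP-ATF composite TGATGCAA (0.895%) or the E-box CACGTG (7.15%). These are matches of letters and not measured sites, and Mcm7 messenger RNA was not measured on these arrays.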

How the data were processed

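Cy3-labelled RNA was hybridised to 1-colour Agilent microRNA arrays, 12 in all. The submitters' processing notes name Agilent Feature Extraction 10.7.1.1. The authors deposited its scanner tables of spot intensity, and a log2 table that matches, within 1.18e-06, the unscaled log2 of the total the software gives each microRNA. Here the background-subtracted intensity was averaged over the spots of a probe, summed over probes, divided by each array's 75th percentile over 93 microRNAs detected on all arrays, floored at 0.0191 of it and put on the log2 scale.

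The test was limma 3.58.1 (R 4.3.3) with 6 group means (6 residual and 1.65 prior degrees of freedom), Benjamini-Hochberg adjusted over 176 mouse microRNAs that at least 1 group had detected on both its arrays. There were 11 comparisons and 31 alternatives, of which 3 (brightest probe, sum of probe totals, summed-signal scaling) were chosen after seeing the data. The members and lists were chosen with earlier results of these data known. Named microRNAs are the members, their star strands and up to 4 of each list. The deposited files hold no mean signal column, so normexp used median signals. On simulated data for 12 h in wild type with 176 microRNAs, 67.5% of changes of log2 1 were called, and 2.93% of calls were false. The simulated arrays were independent, without run or slide effects, so these rates do not describe the arrays here, which share runs and slides.

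Deviations from group means of same-numbered arrays correlated at 0.48 in untreated and 0.76 to 0.91 in treated cells, but at -0.38 to -0.05 between slides. Numbers therefore mark a run within a slide, which the file prefixes in the labels bear out, and pair genotypes, and 12 h with 24 h, but not treated with untreated cells. The fit takes such deviations as independent. The number of arrays limits the precision.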

Additional observations from a re-analysis of the deposited data

Results flagged for a closer look

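For miR-106b the response to tunicamycin differed between genotypes in the main fit, by a test of the difference itself. At 12 h the knockout change exceeded the wild-type change by 0.95 on the log2 scale (limma adjusted p = 0.0271, range over alternatives 0.0077 to 0.995). At 24 h it did so by 0.82 (limma adjusted p = 0.0493, range 0.0167 to 0.995). The call was kept in 14 of 31 alternatives at 12 h and in 8 of 31 at 24 h. Of all microRNAs, 22.2% and 19.9% were called higher in the same tests, with median differences of 0.37 and 0.44. Epithelial markers were detected on the treated knockout arrays only, and their part was not tested. At both times the treated levels of the genotypes were close, and the untreated knockout level was lower.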

How the results depend on the processing

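Each group has 2 arrays, some same-numbered arrays share a run, and slide and treatment cannot be told apart, so p-values may be too small. Groups of 2 arrays that do not overlap are a description only, since the share of all microRNAs without overlap was not counted. Signal limits the dimmer probes. Except as given, the cause of a change was not tested. The number of members called was 3, 2, 3 and 3 for tunicamycin at 12 h and 24 h in wild type and then in knockout cells. It fell to 0 with normexp, with scaling over all mouse microRNAs and with the deposited log2 values, except 1 at 12 h in knockout cells with scaling over all. At 12 h in wild type these settings also took the count over all microRNAs from 67 to 0, 3 and 0, while miR-106b changed by 2.09, 1.40 and 1.65. It was 1 in each with quantile normalization, 1 at 24 h in wild type with the software's total, and 1 at 24 h in knockout cells with only the compared groups. Normexp moved the median of all microRNAs at 12 h in wild type by 1.46.

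Each response difference had 1 member called. It had 0 with normexp, quantile normalization, both other percentile or median scalings, the software's total, the deposited values, probe means, no detection filter, without the 3 arrays of low signal, with the brightest probe and with summed-signal scaling, and at 24 h also with a floor 2 times lower or only the compared groups. With summed-signal scaling miR-25 was called lower instead, at -0.75 and -0.78, and with the brightest probe at 12 h, at -0.66. It was also called lower with the replicate block at 24 h and with the random run block at both times. Untreated, 1 member was called lower in knockout cells, 2 with the brightest probe, and 0 with normexp, quantile, scaling over all, the software's total, deposited values, probe means, no filter, only the compared groups or without the low arrays. At 12 h and 24 h of tunicamycin the 1 call became 0 with normexp, scaling over all, the software's total and the deposited values, and at 24 h with only the compared groups.

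With a replicate block, 2 members were called higher in each response difference and 3 lower in untreated knockout cells, and miR-93 was also called at 24 h in wild type, which gives 3. The other 7 counts stayed the same. A run block gave 2, 2 and 2, and run as a random block 2, 2 and 3. Leaving out 1 array gave 2 to 3 members at 12 h in wild type, 0 to 1 for both response differences and for untreated genotypes, and the reported count elsewhere.

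With the software's total and the deposited values in turn, miR-25 turned to -0.35 and -0.56 at 24 h in wild type, to 2.21 and 1.47 for knockout against wild type at 12 h, and to 2.12 and 1.78 at 24 h. At 12 h in wild type it was -0.07 with the total. miR-96 at 12 h in wild type turned to -3.02 and -2.85, and miR-20b in untreated knockout cells to 0.79 and 1.03. With the deposited values at 12 h in knockout cells miR-20b was -0.42, miR-15b -0.11 and miR-16 -0.17, and the difference of miR-20a -0.03. With normexp the 12 h difference of miR-106b was -0.33.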
